A study of Homo sapiens with 14 samples.

Results

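Chromatin accessibility around the genes of the IL-6, JAK and STAT3 pathway was described in 2 human multiple myeloma (MM) cell lines. The 10 genes, of 20033 protein-coding genes annotated, were chosen by name: IL6, IL6R, IL6ST, JAK1, JAK2, TYK2, STAT3, SOCS1, SOCS3 and PTPN6. No measured value set the choice, but earlier results of these data were known. For each gene, all reference peaks in the gene body and the 100 kb on each side were taken. These windows held 201 of the 72802 reference peaks of MM.1S and 196 of the 79969 of RPMI8226. Omni-ATAC, which marks open chromatin by the insertion of a transposase, was applied to established MM lines grown in monoculture (MONO), in the upper transwell above HS5 bone marrow stromal cells (TSW), or in the lower chamber in contact with them (CO). MM.1S had 9 libraries (3 MONO, 3 TSW, 3 CO) and RPMI8226 had 5 (1 MONO, 2 TSW, 2 CO). No gene was altered and no drug is named for these libraries, and the MM cells were sorted from the culture before the assay. A reference peak is a region called in at least 3 libraries of a line. Its support is the number of libraries that had it, whatever their culture condition.

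IL-6 is a cytokine that bone marrow stroma secretes and that promotes the growth and survival of MM cells. It binds the receptor chain encoded by IL6R and then the signalling chain gp130, encoded by IL6ST. The kinases JAK1, JAK2 and TYK2 sit on gp130 and phosphorylate STAT3, a transcription factor that enters the nucleus and binds palindromic sites. SOCS3 and SOCS1 are feedback inhibitors of the kinases, and PTPN6 encodes the phosphatase SHP-1, which removes phosphate from kinases and receptors in blood cells.

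The lists pool the culture conditions and give no value for a single library, so the MONO, TSW and CO groups were not compared and no test was possible. The lists hold no read depth. The study gives read totals per library, which entered no count here, and the part of depth in support was not tested. Where an interval stands beside a share, it is a 95% Wilson interval over peaks and covers counting error only. Among marker genes, all 8 plasma cell markers had a promoter peak in both lists, and 8 in MM.1S and 7 in RPMI8226 had it in every library. SLAMF7 reached 4 of 5 libraries in RPMI8226. Over all protein-coding genes, 76.8% in MM.1S and 71.8% in RPMI8226 had a promoter peak, and 69.2% and 66.5% had one in every library. Of 10 stromal markers, 6 in MM.1S and 4 in RPMI8226 had a promoter peak, and 4 and 2 had it in every library. COL1A1 and PDGFRB had full support in both lists, and LOX and TWIST1 had it in MM.1S with no peak in RPMI8226. THY1, COL3A1, LUM and POSTN had none in either list. Since most protein-coding genes had a promoter peak, these marker counts do not by themselves identify the cells.

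All 10 genes had a promoter peak in every library of both lines (66.5 to 69.2% over all protein-coding genes, as above). A promoter here is the 2500 bp on either side of any annotated start site of the gene. The 10 genes had 29 own promoter peaks in MM.1S, of which 25 overlapped an RPMI8226 peak (86.2%, interval 69.4 to 94.5%, against 71.8% over all promoter peaks) and 21 were present in all 9 libraries (72.4%, 54.3 to 85.3%, against 67.5%). In RPMI8226 they had 27, of which 25 overlapped an MM.1S peak (92.6%, 76.6 to 97.9%, against 76.6%) and 21 were present in all 5 libraries (77.8%, 59.2 to 89.4%, against 74.2%). With only the canonical start site of each gene, 10 genes had a promoter peak in both lists. A peak of every library was then found for 10 in MM.1S and 9 in RPMI8226, where the exception was IL6. The IL6 peak of all 5 RPMI8226 libraries counted only through an upstream start, and the peaks near the canonical start had a support of 3.

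The genes differed in where the open chromatin lay with respect to the start site. The canonical start, the start of the transcript that GENCODE marks as representative, lay inside a peak for 9 genes in MM.1S and 8 in RPMI8226. This count was chosen after the values were seen. IL6 was covered in neither list, PTPN6 in MM.1S only, and the other 8 in both lists, each by a peak called in all 9 and all 5 libraries. Of all protein-coding genes, 52.0% had the canonical start inside a peak in both lists, 10.1% in MM.1S only, 1.88% in RPMI8226 only and 36.1% in neither. The plot of the start sites shows these peaks drawn to scale.

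**Figure D1:**
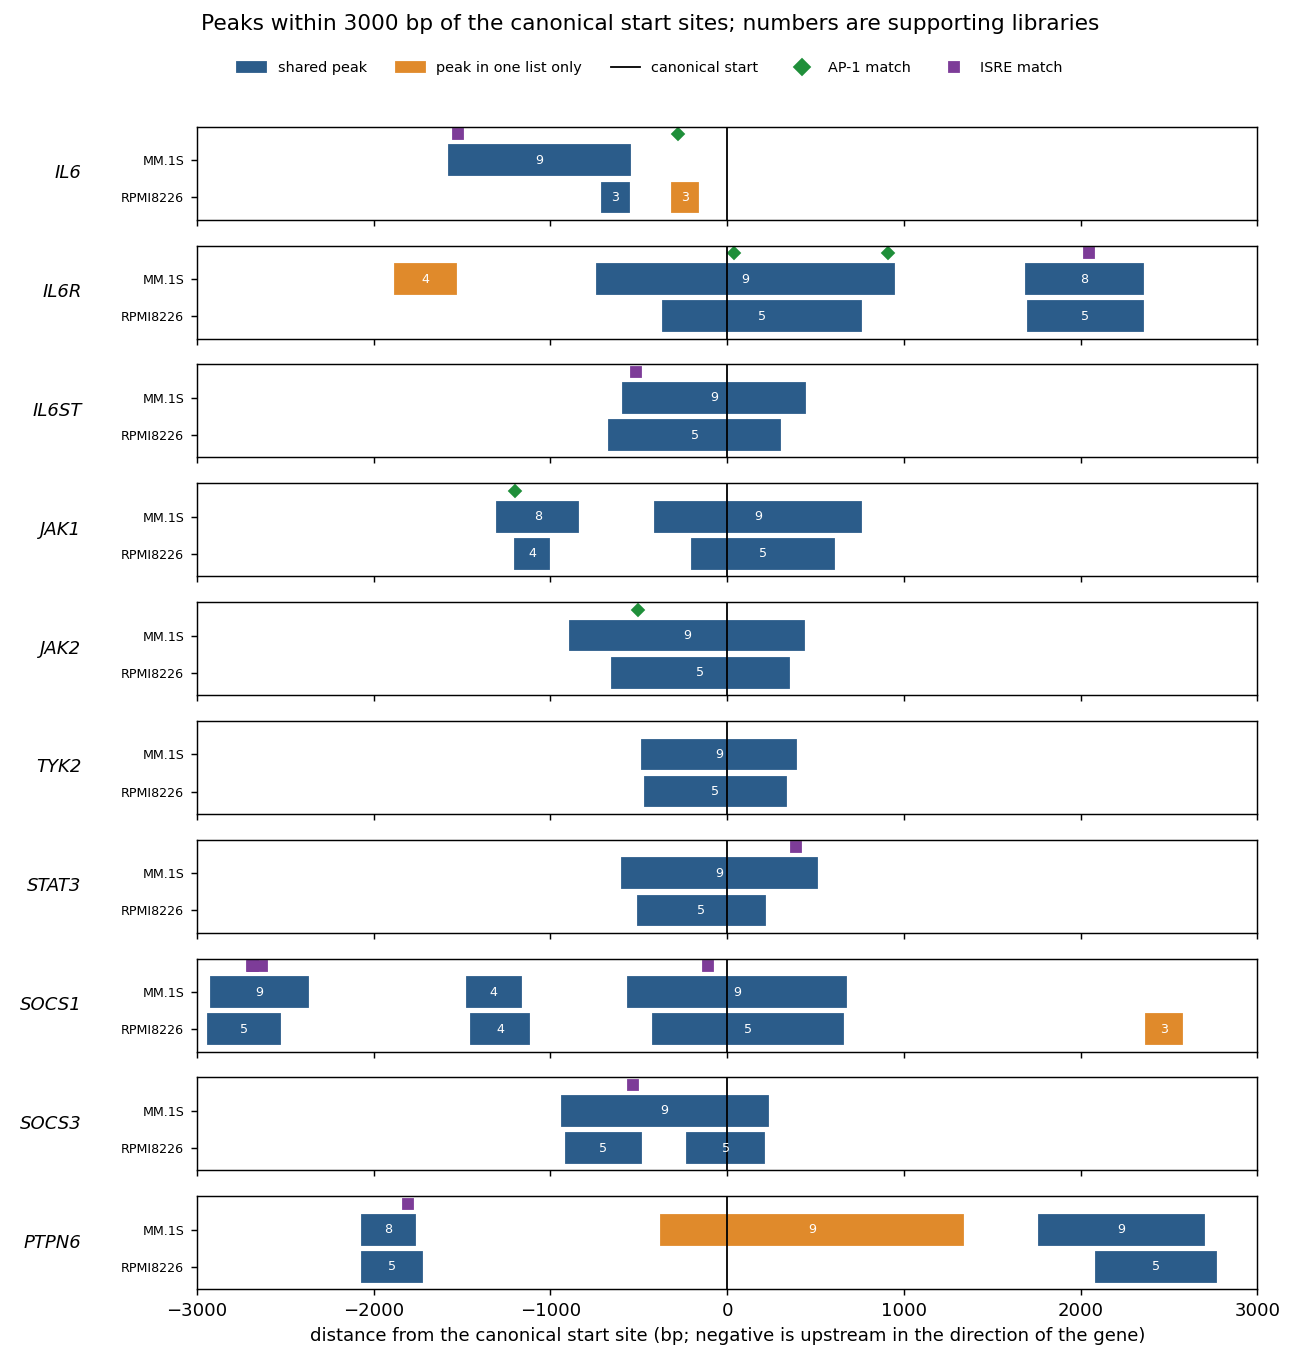
Reference peaks within 3000 bp of the canonical start of each of the 10 genes, drawn by distance from the start in bp, with MM.1S above RPMI8226 in each row and the number of supporting libraries written in each peak. Symbols mark matches to the AP-1 and ISRE consensus inside a peak. IL6 has no peak over its start in either list and PTPN6 has a 1711 bp peak over it in MM.1S only, whereas the other 8 starts lie inside a peak of both lists.

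At the ligand gene, IL6, the open chromatin stopped short of the canonical start. In MM.1S a 1026 bp peak at chr7:22725624-22726649 had a support of 9 and ended 551 bp upstream of the canonical start. The most upstream of the 7 annotated IL6 starts, at position 22725884, lay inside it. In RPMI8226 the same place held a peak of only 154 bp with a support of 3 (chr7:22726491-22726644). A second RPMI8226 peak, chr7:22726888-22727035, was 148 bp wide, also had a support of 3 and overlapped no MM.1S peak. It lay closer to the start, with its near edge 165 bp away. A peak about 3.8 kb upstream was present in 8 MM.1S libraries (493 bp) and all 5 RPMI8226 libraries (373 bp). The support of 3 does not require a MONO library in either line, since TSW and CO together had 6 libraries in MM.1S and 4 in RPMI8226. IL6-AS1 and STEAP1B have start sites within 2500 bp of the peaks nearest to IL6, so these peaks cannot be assigned to IL6 alone. IL6 is also a gene that stromal cells express. The MM cells were sorted as CD90-negative and CD38-positive, a gate that removes cells with the stromal protein CD90, which THY1 encodes. THY1 had no promoter peak in either list, whereas the stromal markers COL1A1 and PDGFRB had one with full support in both. The paper reports a minimal level of HS5 cells among the MM cells sorted from the lower chamber. Full support takes in the MONO libraries, which were grown without HS5 cells. It was reached by the 1026 bp MM.1S peak and, in RPMI8226, by the peak 3.8 kb upstream. The part of remaining HS5 cells in the IL6 peaks was not tested.

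The sequence of the RPMI8226-only peak is shown because it holds an AP-1 motif, TGAGTCA, at chr7:22726917-22726923, which is 280 bp upstream of the IL6 start. AP-1 is the family of JUN and FOS factors. The proximal promoter of IL6 follows, since it holds an NF-kB motif 68 bp upstream of the start that lay outside the peaks of both lists. Both are given on the plus strand of hg38 with the named motif in capitals, and the promoter is identical to its RefSeq entry. The promoter also holds 1 match to the interferon response element (ISRE, GAAANNGAA), which is left in lower case.
IL6, RPMI8226-only peak, chr7:22726888-22727035: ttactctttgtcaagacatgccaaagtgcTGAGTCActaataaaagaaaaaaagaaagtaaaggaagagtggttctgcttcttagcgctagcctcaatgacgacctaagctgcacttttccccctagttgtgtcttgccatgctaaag
IL6, promoter, chr7:22726950-22727249: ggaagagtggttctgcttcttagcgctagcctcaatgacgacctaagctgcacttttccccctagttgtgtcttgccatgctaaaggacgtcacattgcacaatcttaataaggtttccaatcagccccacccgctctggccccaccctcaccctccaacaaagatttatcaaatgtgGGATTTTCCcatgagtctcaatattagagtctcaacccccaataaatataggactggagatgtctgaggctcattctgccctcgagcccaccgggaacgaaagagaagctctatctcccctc

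At the feedback inhibitor SOCS3, the start was open in every library of both lines. In MM.1S a single 1167 bp peak covered the start (chr17:78359848-78361014, support 9). In RPMI8226 the same stretch held 2 separate peaks, of 436 bp over the start (chr17:78359868-78360303) and 428 bp upstream (chr17:78360564-78360991), each with a support of 5. These peaks are also within 2500 bp of a start of SOCS3-DT and cannot be assigned to SOCS3 alone.

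SOCS3 also stood in a window dense in open chromatin, with 22 peaks in MM.1S and 23 in RPMI8226. Close to the gene, a peak 3.6 kb downstream of the start was called in all libraries of both lines (416 bp in MM.1S and 341 bp in RPMI8226). It held a match to the wider STAT consensus TTCNNNGAA and an AP-1 match in both lists. Another, 6.9 kb downstream, was present in 8 MM.1S and 5 RPMI8226 libraries. A 556 bp peak 6.5 kb upstream was found in 8 MM.1S libraries and overlapped no RPMI8226 peak, and it also held a wider STAT match. The widest distal peak of the window in MM.1S was chr17:78257605-78258684 (1080 bp, support 9), and it overlapped an RPMI8226 peak in all 5 libraries. In RPMI8226 the widest was chr17:78266291-78267168 (878 bp, support 4). Among the distal peaks of RPMI8226 alone, chr17:78337543-78337862 (320 bp), 22.4 kb downstream, was in all 5 libraries.

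At the second feedback inhibitor, SOCS1, the start lay inside a peak of every library in both lines. A 1231 bp peak in MM.1S (chr16:11255533-11256763, support 9) and a 1074 bp peak in RPMI8226 (chr16:11255550-11256623, support 5) covered the start. A peak about 1.3 kb upstream had a support of 4 of 9 libraries in MM.1S (305 bp) and 4 of 5 in RPMI8226 (327 bp). Another peak, 2.6 kb upstream in MM.1S (550 bp, support 9), overlapped an RPMI8226 peak of 406 bp with a support of 5. That peak began 2532 bp from the start and so was counted as distal in RPMI8226 and as promoter in MM.1S. The RPMI8226 list also had a 206 bp peak with a support of 3 beyond the end of the gene (chr16:11253629-11253834).

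The SOCS1 promoter is shown because it carries a match to the interferon response element, written here as ISRE GAAANNGAA, 109 bp upstream of the start and inside the peaks of both lists. SOCS1 is known as a target of interferon signalling. The peak 2.6 kb upstream held 3 more such matches in both lists, 2 of which overlap each other. Matches to this motif are common: 8.11% of the RefSeq promoters have one. The sequence is the minus strand, is identical to the RefSeq entry, and has the match in capitals.
SOCS1, promoter, chr16:11256155-11256454: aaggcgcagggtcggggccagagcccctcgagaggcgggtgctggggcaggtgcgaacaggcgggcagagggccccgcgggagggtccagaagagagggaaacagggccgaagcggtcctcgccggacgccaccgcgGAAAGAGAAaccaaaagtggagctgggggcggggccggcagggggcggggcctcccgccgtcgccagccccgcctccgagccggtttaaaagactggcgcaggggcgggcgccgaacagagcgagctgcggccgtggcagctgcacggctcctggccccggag

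At the phosphatase gene PTPN6, the lines differed at the start itself. PTPN6 has an upstream start that epithelial cells are known to use and a downstream start known from blood cells, and the canonical start is the downstream one. In MM.1S a 1711 bp peak lay over it (chr12:6950981-6952691) with a support of 9. No RPMI8226 reference peak overlapped it. A canonical start inside a peak of all 9 MM.1S libraries and of no RPMI8226 peak was found for 7.79% of protein-coding genes. The peaks on both sides were present in both lists. At 1.9 kb upstream a peak had a support of 8 in MM.1S (302 bp) and 5 in RPMI8226 (340 bp). The peak after the start (chr12:6953118-6954054 in MM.1S and chr12:6953443-6954120 in RPMI8226) was in all libraries of both lines. The upstream start was covered in both lists as well, by a 1231 bp peak in MM.1S (chr12:6945627-6946857) and a 419 bp peak in RPMI8226 (chr12:6946301-6946719), with full support in each. Both of these peaks are also within 2500 bp of starts of C12orf57 and RNU7-1 and cannot be assigned to PTPN6 alone. An RPMI8226 region called in fewer than 3 libraries would not be in the list, so the difference is in called peaks and not in measured signal.

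The 300 bases around the downstream PTPN6 start are printed because the whole stretch lies in the MM.1S peak and none of it in an RPMI8226 peak. It is the plus strand, is identical to the RefSeq entry, and held no match to any of the 6 motifs searched. No letters are in capitals.
PTPN6, promoter, chr12:6951106-6951405: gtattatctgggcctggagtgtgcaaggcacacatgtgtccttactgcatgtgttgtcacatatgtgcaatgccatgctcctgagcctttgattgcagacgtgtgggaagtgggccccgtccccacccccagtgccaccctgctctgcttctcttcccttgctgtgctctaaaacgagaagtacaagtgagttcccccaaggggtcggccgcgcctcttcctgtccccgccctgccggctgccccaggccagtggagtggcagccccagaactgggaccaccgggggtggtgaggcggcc

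In all, PTPN6 had 8 own promoter peaks in MM.1S and 6 in RPMI8226. Further own promoter peaks lay at 8.0 kb (983 bp in MM.1S and 594 bp in RPMI8226) and at 9.5 kb in MM.1S, where the RPMI8226 counterpart was 385 bp wide, all with full support. A 716 bp peak with a support of 8 just past the gene, shared with the promoters of MIR200C and MIR141, was in MM.1S only. The PTPN6 window is gene-rich. Only 1 of its 24 MM.1S peaks and 0 of its 24 RPMI8226 peaks were distal, and 21 and 23 of them overlapped the other list. The distal peak, chr12:7036838-7037282, was 445 bp wide with a support of 6 and was in MM.1S only.

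The receptor gene IL6R had the most peaks of the 10 windows in both lists, 26 in MM.1S and 32 in RPMI8226. Its start was covered by a 1678 bp peak in MM.1S (chr1:154404609-154406286) and a 1122 bp peak in RPMI8226 (chr1:154404979-154406100), both with full support. A peak 2.0 kb downstream was of nearly the same width in both lists, 663 bp with a support of 8 in MM.1S and 651 bp with a support of 5 in RPMI8226. A 348 bp peak 1.7 kb upstream was in 4 MM.1S libraries and in no RPMI8226 peak. The gene body had 5 peaks outside the own promoter in MM.1S and 7 in RPMI8226. The peaks over the start and 2.0 kb downstream are also within 2500 bp of a start of IL6R-AS1, a gene on the opposite strand.

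The widest distal peak of the IL6R window in MM.1S lay in an intron 13.6 kb from the start. It was 1671 bp wide in MM.1S (chr1:154418117-154419787, support 9) and 696 bp wide in RPMI8226 (chr1:154418140-154418835, support 5). The stretch with its 3 AP-1 matches lay inside the peaks of both lists and is printed for that reason, on the plus strand of hg38 with the matches in capitals. An AP-1 match lay 40 bp downstream of the IL6R start too, again inside the peaks of both lists.
IL6R, intronic peak, chr1:154418312-154418584: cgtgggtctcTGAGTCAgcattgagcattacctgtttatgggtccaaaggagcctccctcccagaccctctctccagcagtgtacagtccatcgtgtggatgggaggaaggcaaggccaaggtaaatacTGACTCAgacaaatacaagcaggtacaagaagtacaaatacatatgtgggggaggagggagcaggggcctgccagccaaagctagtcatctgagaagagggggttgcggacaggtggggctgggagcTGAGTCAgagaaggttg

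Upstream of IL6R, the lines shared a peak 7.0 kb from the start that holds a STAT3 motif (493 bp with a support of 7 in MM.1S, 496 bp with a support of 5 in RPMI8226). In RPMI8226 the widest distal peak was chr1:154353103-154353843 (741 bp, support 5), 51.9 kb upstream, and it overlapped an MM.1S peak of all 9 libraries. The only distal peak that was present in every RPMI8226 library and absent from the MM.1S list lay 87.1 kb downstream (chr1:154492167-154492621, 455 bp). At the TDRD10 promoter the lists did not overlap at all. MM.1S had peaks there in 3 libraries (chr1:154519532-154520304 and chr1:154534366-154534542), whereas RPMI8226 had 2 peaks in all 5 libraries (chr1:154520782-154521305 and chr1:154522200-154522839). RPMI8226 also had 2 peaks there in 3 libraries (chr1:154499552-154499772 and chr1:154520447-154520572). An ATP8B2 promoter peak of 518 bp, 60.1 kb upstream, was in all 9 MM.1S libraries and in no RPMI8226 peak.

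IL6ST, the gene of gp130, had 24 peaks in MM.1S and 18 in RPMI8226, and its MM.1S peaks were the least uniform among libraries. Only 7 of the 24 were called in all 9 libraries, whereas 14 of the 18 RPMI8226 peaks were called in all 5, which is a less strict limit. The start was covered by a 1026 bp peak in MM.1S (chr5:55994525-55995550) and a 967 bp peak in RPMI8226 (chr5:55994664-55995630), both with full support. A second promoter peak, 16.7 kb into the gene, was 850 bp wide in MM.1S and 587 bp wide in RPMI8226, again in all libraries. It held a wider STAT match in both lists. The peaks over the start are also within 2500 bp of a start of IL6ST-DT, and those 16.7 kb into the gene of a start of ENSG00000249236. They cannot be assigned to IL6ST alone. A 283 bp promoter peak 11.8 kb into the gene was in 4 MM.1S libraries only. Most of the other peaks lay upstream of the gene, and the widest distal ones were 1309 bp in MM.1S (chr5:56094504-56095812, support 8) and 951 bp in RPMI8226 (chr5:56080509-56081459, support 5). Both overlapped peaks of the other list. Of the 12 distal peaks of RPMI8226, 11 overlapped an MM.1S peak. No distal peak of IL6ST was both in every library of its line and absent from the other list.

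The kinase genes ranged from the sparsest window of the 10 to a dense one. JAK2 had 8 peaks in MM.1S and 6 in RPMI8226 in a window of 346 kb, or 2.32 and 1.74 peaks per 100 kb. These densities stood at percentiles 24.3 and 15.8 of all protein-coding genes. The only peak in the 145.6 kb gene body was the promoter peak, 1322 bp in MM.1S (chr9:4984384-4985705, support 9) and 1000 bp in RPMI8226 (chr9:4984621-4985620, support 5). After it, MM.1S had no reference peak for 200.6 kb, and RPMI8226 had none for the 244.3 kb to the end of the window. The promoter peak held an AP-1 match 502 bp upstream of the start in both lists. Except for 1 MM.1S peak, the other peaks lay upstream. The widest distal ones were chr9:4901400-4902316 in MM.1S (917 bp, support 9), which overlapped an RPMI8226 peak of all 5 libraries, and chr9:4939068-4939502 in RPMI8226 (435 bp, support 5). That MM.1S peak beyond the gene, 349 bp at the INSL6 promoter with a support of 9, was absent from the RPMI8226 list.

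JAK1 had 22 peaks in MM.1S and 23 in RPMI8226, most of them within its long gene body (16 and 15). It had 5 own promoter peaks in each list, and each of the 5 overlapped a peak of the other list. The canonical start was covered by 1164 bp in MM.1S (chr1:64965794-64966957) and 808 bp in RPMI8226 (chr1:64965944-64966751). The start sites about 100 kb upstream were open in all libraries as well (chr1:65066525-65067530 in MM.1S, 1006 bp, and 960 bp in RPMI8226). Next to them a 972 bp MM.1S peak with a support of 9 was matched by 265 bp with a support of 3 in RPMI8226. The peaks about 100 kb upstream are also within 2500 bp of a start of ENSG00000288804 and cannot be assigned to JAK1 alone. A promoter peak 102.2 kb downstream, 555 bp in MM.1S and 495 bp in RPMI8226, had full support in both.

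Intronic peaks in every library of only 1 line were found on both sides at JAK1. In MM.1S these were chr1:64882751-64883486 (736 bp) and chr1:64861622-64862049 (428 bp). In RPMI8226 they were chr1:65027561-65028073 (513 bp) and chr1:64982235-64982454 (220 bp). The widest distal peak of the window in MM.1S, chr1:65049964-65050758 (795 bp), had a support of 7 and no overlap in RPMI8226. In RPMI8226 it was chr1:64897997-64898826 (830 bp, support 5), which overlapped a 664 bp MM.1S peak of all 9 libraries and held 3 AP-1 matches, of which the MM.1S peak held 2. The widest peak of the window that was in 1 list only belonged to another gene. It lay at the promoter of AK4, which encodes an adenylate kinase, and was 1686 bp wide in all 9 MM.1S libraries (chr1:65147350-65149035).

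TYK2 had a single promoter peak, nearly alike in the lists, of 873 bp in MM.1S (chr19:10380181-10381053) and 797 bp in RPMI8226 (chr19:10380242-10381038), each with full support. No other peak lay in the gene body. Its window is rich in other promoters, which held 16 of its 23 MM.1S peaks and 14 of its 21 RPMI8226 peaks. They include the cluster of ICAM genes, which encode adhesion molecules that bind integrins of leukocytes. The ICAM1 promoter had the widest MM.1S peak of all 10 windows, 2180 bp (chr19:10269418-10271597, support 9), and a 1554 bp peak in RPMI8226 (chr19:10270326-10271879, support 5). It held a STAT3 match in both lists. Of the NF-kB matches (GGANTTTCC), 3 lay in the MM.1S peak and 1 in the RPMI8226 peak. An 805 bp peak at the ICAM3 promoter (chr19:10339125-10339929) and a 653 bp peak at ICAM5 (chr19:10292144-10292796) were in all 9 MM.1S libraries and in no RPMI8226 peak. The widest distal peaks were chr19:10424258-10425661 in MM.1S (1404 bp, support 8) and chr19:10299752-10300287 in RPMI8226 (536 bp, support 5). Both overlapped the other list. RPMI8226 alone had a 334 bp peak 7.2 kb upstream of TYK2 in all 5 libraries (chr19:10387569-10387902).

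STAT3, the transcription factor gene, had 19 peaks in MM.1S and 15 in RPMI8226. The start was covered by 1105 bp in MM.1S (chr17:42387936-42389040) and 718 bp in RPMI8226 (chr17:42388230-42388947). A further promoter peak over an exon 65.3 kb into the gene, 544 bp in MM.1S and 393 bp in RPMI8226, was in all libraries of both lines and held a wider STAT match in both. The MM.1S peak over the start held a wider STAT match 385 bp downstream of the start, in the part that the narrower RPMI8226 peak did not reach. The RefSeq promoter of STAT3 held no match to any of the 6 motifs.

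Over all windows together, 14 of 201 MM.1S peaks were in all 9 libraries and absent from the RPMI8226 list. The reverse kind, in all 5 RPMI8226 libraries and absent from the MM.1S list, made up 14 of 196. Over the whole lists these kinds were 7072 of 72802 MM.1S and 13278 of 79969 RPMI8226 peaks, so the windows had no excess. The STAT3 window had the most of the MM.1S kind, 5 of the 14, and 0 of the 14 of the reverse kind. Of these 5, 3 were distal, at chr17:42248542-42249192 (651 bp), chr17:42312111-42312671 (561 bp) and chr17:42484244-42484782 (539 bp). Another was the 611 bp peak at the STAT5A promoter (chr17:42288240-42288850), which is also within 2500 bp of a STAT5B start. STAT5A encodes another STAT factor of cytokine signalling. The last was a 643 bp peak at CAVIN1, which encodes a coat protein of caveolae (chr17:42422394-42423036). The widest distal peak in both lists lay 26.7 kb upstream of STAT3 (chr17:42414730-42415515 in MM.1S, 786 bp, and 671 bp in RPMI8226) and had full support.

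In all, the windows had a median of 22 peaks per gene in both lists, against a median of 11 over the windows of all protein-coding genes. Per 100 kb the median was 9.07 in MM.1S and 8.03 in RPMI8226, against 4.05 and 4.36 over all protein-coding genes. The median percentile of the 10 genes was 89.9 in MM.1S and 82.5 in RPMI8226. The range ran from JAK2 to PTPN6 at 11.17 per 100 kb in MM.1S and IL6R at 12.11 in RPMI8226. The plot of peak numbers by gene gives the make-up of each window.

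**Figure D2:**
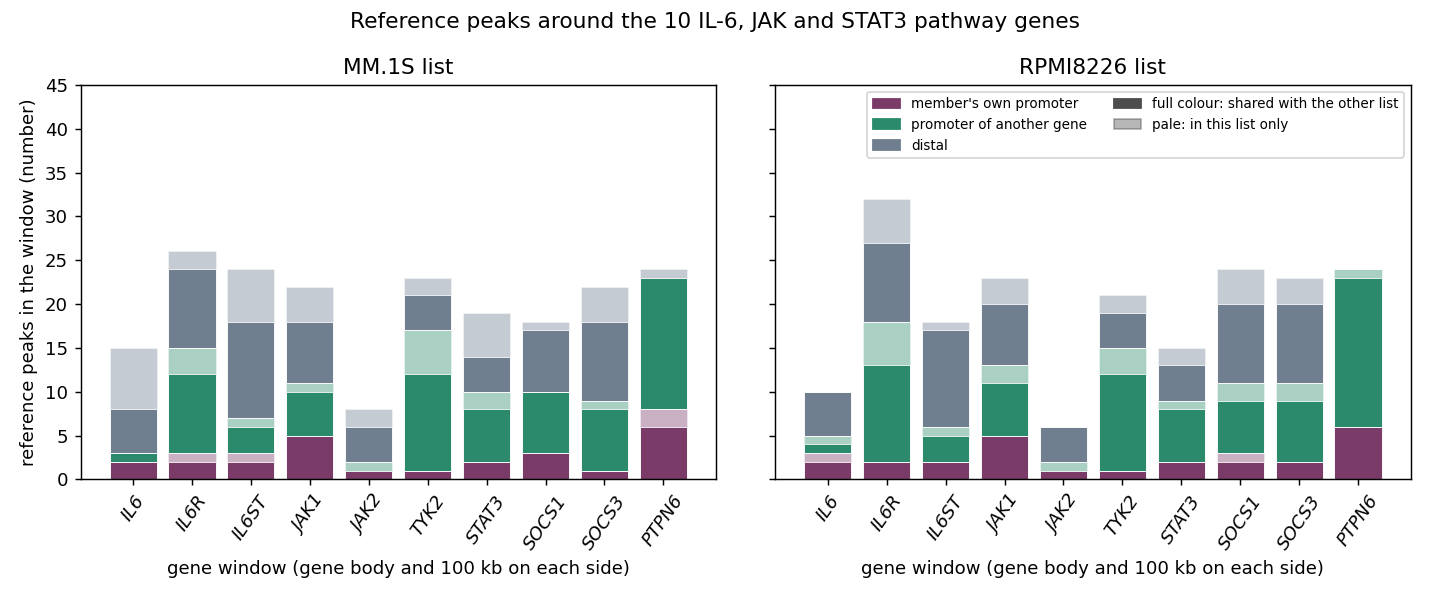
Number of reference peaks in the window of each gene (vertical axis), for the MM.1S list (left) and the RPMI8226 list (right). Colours give peaks at the gene's own promoter, at promoters of other genes and distal peaks, and pale parts are peaks in that list only. JAK2 has the fewest peaks (8 and 6) and IL6R the most (26 and 32), and PTPN6 has almost no distal peaks.

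Of the 201 MM.1S peaks, 107 lay at a promoter of any gene (53.2%, interval 46.3 to 60.0%), where the share over the list was 39.2%. Of the 196 RPMI8226 peaks, 114 did (58.2%, 51.2 to 64.8%), where it was 36.0%. The windows were placed on genes and so hold start sites by choice, whereas the lists cover the whole genome. The promoter share, and the shared part that follows, are therefore not set against a like background. The part of this choice in them was not tested. Peaks in the windows overlapped the other list in 149 cases in MM.1S (74.1%, 67.7 to 79.7%, against 64.6%) and 155 in RPMI8226 (79.1%, 72.9 to 84.2%, against 62.0%). Promoter peaks were shared in 83.2% of cases in MM.1S (75.0 to 89.1%, against 71.8%) and 81.6% in RPMI8226 (73.5 to 87.6%, against 76.6%). Distal peaks were shared in 63.8% of cases in MM.1S (53.8 to 72.8%, against 60.0%), which is near the list's share. In RPMI8226 they were shared in 75.6% (65.3 to 83.6%, against 53.7%). By gene the shared part went from 53.3% at IL6 to 94.4% at SOCS1 in MM.1S, and from 68.8% at IL6R to 95.8% at PTPN6 in RPMI8226.

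At IL6, 7 of the 15 MM.1S peaks were in MM.1S only and all 7 were distal, whereas 2 of the 10 RPMI8226 peaks were in RPMI8226 only and all 5 distal ones were shared. Over the whole lists, 64.6% of MM.1S and 62.0% of RPMI8226 peaks were shared, so the part in 1 list only was slightly smaller in MM.1S. At some other genes of the 10 it was larger in MM.1S, as at IL6. It was 8 of 24 against 2 of 18 at IL6ST, 7 of 19 against 3 of 15 at STAT3, and 3 of 8 against 1 of 6 at JAK2, where all 4 distal RPMI8226 peaks were shared as well. At TYK2 it was 7 of 23 against 5 of 21, and at PTPN6 3 of 24 against 1 of 24. Of the 7 at IL6, only chr7:22672806-22673324 (519 bp, 54.1 kb upstream) was in all 9 libraries. The widest distal peak lay 38.5 kb downstream and was in all libraries of both lines, at 741 bp in MM.1S (chr7:22765368-22766108) and 373 bp in RPMI8226 (chr7:22765617-22765989). A peak 4.2 kb downstream, inside the gene, was in 9 MM.1S and 4 RPMI8226 libraries. The part was smaller in MM.1S at SOCS1 (1 of 18 against 7 of 24) and IL6R (6 of 26 against 10 of 32). At JAK1 and at SOCS3 it was nearly equal, with 5 of 22 against 5 of 23 at each gene. Of the 7 at SOCS1, the peak in all 5 libraries was chr16:11175834-11176604 (771 bp), 80.0 kb downstream, and it held 2 wider STAT matches. The widest distal peaks of SOCS1 were shared and had full support, at 962 bp in MM.1S (chr16:11224915-11225876) and 882 bp in RPMI8226 (chr16:11354549-11355430). The map of the 10 windows shows where the shared and the line-specific peaks lay.

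**Figure D3:**
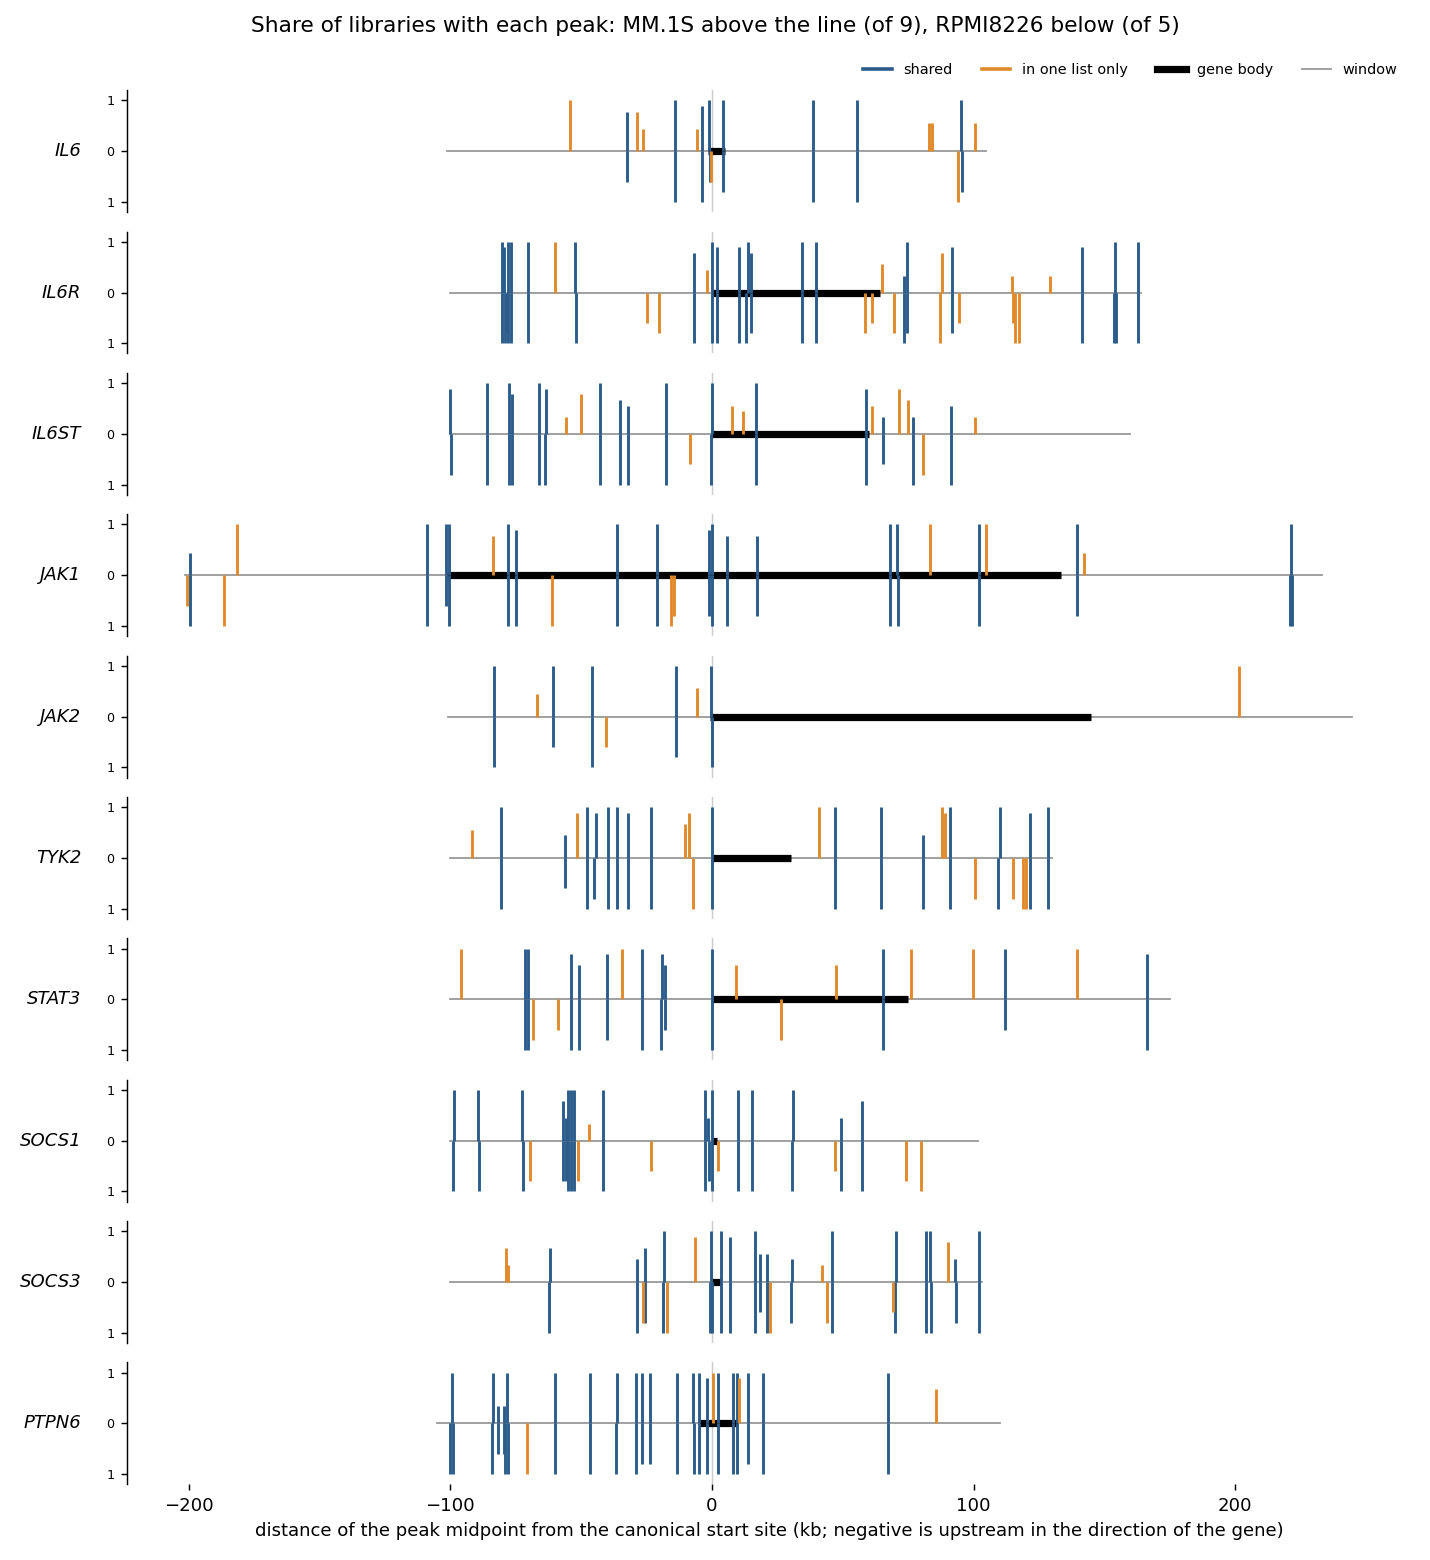
Reference peaks in the 10 windows by distance of the peak midpoint from the canonical start in kb, with the share of libraries that had the peak on the vertical axis, upwards for MM.1S (of 9) and downwards for RPMI8226 (of 5). Blue lines are shared peaks, orange lines are peaks in 1 list only, and black bars are gene bodies. The JAK2 gene body is empty past its promoter, and the orange lines at IL6 point mostly upwards.

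The support of the window peaks was close to that of the whole lists. In MM.1S, 112 of 201 were in all 9 libraries (55.7%, 48.8 to 62.4%, against 52.0%). In RPMI8226, 136 of 196 were in all 5 (69.4%, 62.6 to 75.4%, against 64.1%). Promoter peaks had full support in 70.1% of cases in MM.1S (60.8 to 77.9%, against 67.5%) and 74.6% in RPMI8226 (65.9 to 81.7%, against 74.2%). Distal peaks had it in 39.4% in MM.1S (30.1 to 49.5%, against 42.0%) and 62.2% in RPMI8226 (51.4 to 71.9%, against 58.5%). The list's share lay inside each of these intervals.

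Peaks that the lines shared had full support more often than the others in both lists. In MM.1S it was 98 of 149 shared peaks (65.8%, 57.8 to 72.9%, against 65.4% over the list) and 14 of 52 MM.1S-only peaks (26.9%, 16.8 to 40.3%, against 27.5%). In RPMI8226 it was 122 of 155 shared peaks (78.7%, 71.6 to 84.4%, against 76.7%) and 14 of 41 RPMI8226-only peaks (34.1%, 21.6 to 49.5%, against 43.6%). Full support in both lines at once was found for 86 MM.1S peaks (42.8%, 36.1 to 49.7%, against 37.4%) and 91 RPMI8226 peaks (46.4%, 39.6 to 53.4%, against 35.6%).

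**Figure D4:**
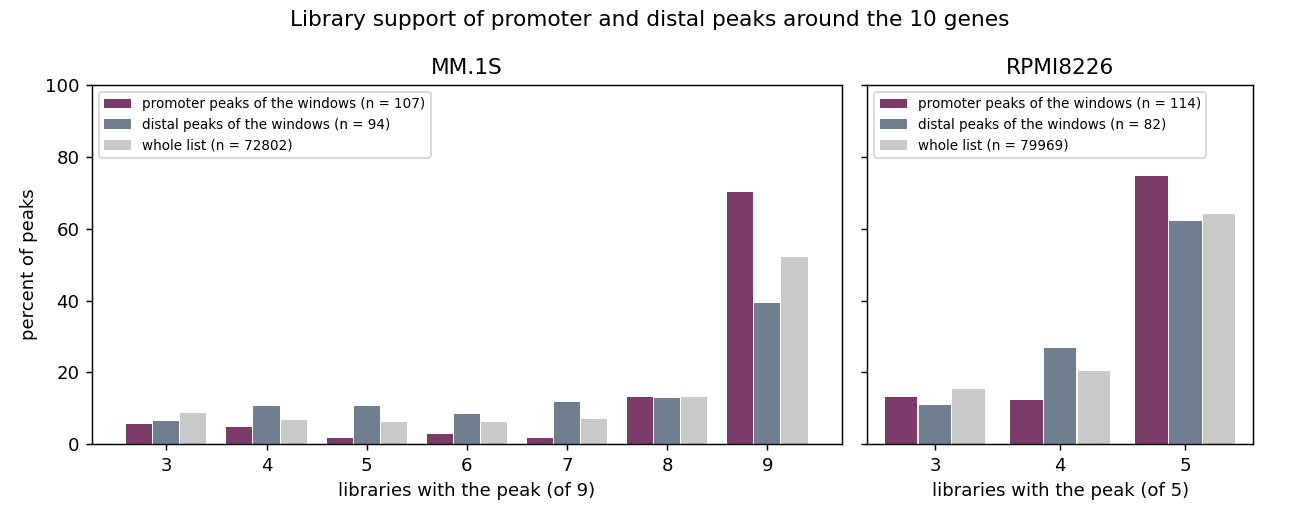
Percent of peaks (vertical axis) by the number of libraries that had them, for promoter and distal peaks of the 10 windows and for the whole list, in MM.1S (left) and RPMI8226 (right). Promoter peaks pile up at full support (70.1% and 74.6%), and distal peaks are spread over lower support, most of all in MM.1S (39.4% at full support).

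Support also limits what the culture conditions can have added. A peak with a support above 6 in MM.1S, or above 4 in RPMI8226, must have been called in a MONO library. This held for 151 of the 201 MM.1S peaks (75.1%, 68.7 to 80.6%, against 72.3%) and 136 of the 196 RPMI8226 peaks (69.4%, against 64.1%). The canonical start peaks of the 8 genes covered in both lists were therefore present in at least 1 MONO library of each line, and the PTPN6 start peak in MONO libraries of MM.1S. Whether a peak's height changed in TSW or CO cannot be read from the lists. By gene, JAK1 had a MONO library behind 20 of its 22 MM.1S peaks, whereas IL6ST had one for certain behind 13 of 24 and SOCS3 behind 12 of 22. In RPMI8226, IL6 had one for certain behind 5 of 10 peaks and JAK2 behind 3 of 6.

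The peaks of the windows were wider in MM.1S, at a median of 568 bp, than in RPMI8226, at 373 bp. The whole lists differed in the same way (536 and 362 bp). In 142 pairs of peaks that overlapped 1 to 1, MM.1S had the broader peak in 116 (81.7%), which is the share over all such pairs (81.6%). Own promoter peaks had medians of 937 bp in MM.1S and 495 bp in RPMI8226, and distal peaks 476 and 329 bp. The lower width and the smaller number of libraries in RPMI8226 go together in these lists. By the study's read totals, each RPMI8226 library also had fewer uniquely mapped read pairs than all but 1 MM.1S library. That MM.1S library was a MONO library, and a peak not called in it cannot have full support. The part of width, library number and depth in the sharing was not tested.

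The motif of the pathway's own factor was rare in the windows and over the whole lists alike. The STAT3 consensus, TTCCNGGAA on both strands, was found in 6 of 201 MM.1S peaks (2.99%, against 1.98% over the list) and 3 of 196 RPMI8226 peaks (1.53%, against 1.43%). These are 6 sites in all, of which 3 lay in peaks of both lists, 3 in MM.1S peaks only and 0 in RPMI8226 peaks only. Within the central 200 bp of each peak, a match was found in 2 MM.1S and 3 RPMI8226 peaks, so the order of the lists turned. Of the 35116 promoter sequences in the RefSeq table, which run from 250 bases before to 50 bases after a start, 1.15% hold such a match. Of the sites, 5 are printed with 10 bases on each side, in the direction of the gene that names the window and with the motif in capitals, so that their flanks can be compared. The central base differs among them, and 3 of the 5 read TTCCAGGAA.
IL6R, 7.0 kb upstream, both lists, chr1:154398364-154398392: ttagactatcTTCCAGGAAaggtacaatg
IL6R window, TDRD10 promoter, MM.1S only, chr1:154519861-154519889: tggggaaatgTTCCGGGAAgaggaaggga
IL6ST, 55.7 kb upstream, MM.1S only, chr5:56050637-56050665: ttatcacaacTTCCAGGAAgcaaactaag
TYK2 window, ICAM1 promoter, both lists, chr19:10271035-10271063: cggtgctgctTTCCCGGAAacctcgcgcc
TYK2 window, ICAM3 promoter, MM.1S only, chr19:10339160-10339188: tggtccccgcTTCCAGGAAgccttccctg

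These 5 sites differed in support. The ICAM1 site lay in peaks of all 9 and all 5 libraries, and the IL6R site at 7.0 kb in peaks of 7 and 5. The ICAM3 site was in a peak of all 9 MM.1S libraries. The IL6ST site (648 bp peak, chr5:56050429-56051076) and the TDRD10 site lay in peaks of 3 MM.1S libraries, which may include no MONO library.

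The wider STAT consensus, of which each STAT3 match is also a match, had 58 sites, 23 in both lists, 24 in MM.1S only and 11 in RPMI8226 only. It was in 39 MM.1S peaks (19.4%, with 14.8% over the list) and 30 RPMI8226 peaks (15.3%, with 10.6%). AP-1 (TGANTCA) was the most frequent motif, with 68 sites (33 in both lists, 20 in MM.1S only and 15 in RPMI8226 only). It was in 45 MM.1S peaks (22.4%, with 21.6% over the list) and 42 RPMI8226 peaks (21.4%, with 25.8%). ISRE had 54 sites (30, 19 and 5) and was in 21.9% of MM.1S peaks (23.6% over the list) and 14.8% of RPMI8226 peaks (17.4%). ATF::CEBP, searched as TGATGNAA, had 18 sites (10, 4 and 4) and was in 5.97% of MM.1S peaks (8.03% over the list) and 6.12% of RPMI8226 peaks (6.06%). NF-kB had 10 sites (4, 3 and 3) and was in 2.49% of MM.1S peaks (3.18% over the list) and 3.57% of RPMI8226 peaks (2.45%). Of the ATF::CEBP sites, 2 lay in own promoter peaks, both at PTPN6 and in both lists. Since MM.1S peaks are wider, they hold more sequence, and counts of matches by list are not comparable as rates.

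The other genes of the pathway were open at their promoters nearly as often. Of 31 further genes (ligands and receptors of the IL-6 family, the other kinase and STATs, and other inhibitors), 30 had an own promoter peak in MM.1S and 28 in RPMI8226, and 28 and 25 had one in every library. Over all protein-coding genes these shares were 76.8% and 71.8%, and 69.2% and 66.5%. The canonical start lay inside a peak for 24 of the 31 in MM.1S and 18 in RPMI8226, against 62.1% and 53.9% of all protein-coding genes. The ligands and receptors had the fewest with the canonical start inside a peak, 5 of 11 in MM.1S and 2 of 11 in RPMI8226. Among them, the receptor gene OSMR had a peak in RPMI8226 only (support 5), and the ligand gene LIF had one in MM.1S only (support 8). The kinase JAK3 and the other 6 STAT genes had the start covered in 7 of 7 cases in MM.1S and 5 of 7 in RPMI8226. STAT5A had no promoter peak in RPMI8226, and JAK3 had one that missed the start. The inhibitors, which include the SOCS, PIAS and PTPN families and CISH, had it covered in 12 of 13 and 11 of 13 cases. PIAS2 had a peak in MM.1S only (support 9), and SOCS2 had peaks in both lists that missed the canonical start.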

How the data were processed

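Omni-ATAC libraries of MM.1S (9) and RPMI8226 (5) were assigned to a line and a culture condition by their titles. Per the study's methods, the authors aligned reads to hg38 with Bowtie2, called peaks in each library with MACS3 and kept peaks present in at least 3 samples of a line. The 2 deposited lists give coordinates and a whole number per peak, in a unit other than reads, read here as the number of libraries with the peak because it runs from 3 to 9 and from 3 to 5. The peak-calling threshold, the merging of peak edges and any shift for the transposase are not given in the sources used here. No depth or per-sample value is in the lists, so no test was run.

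The 10 genes, the lists of other genes and the motifs were chosen with earlier results of these data known. Start positions were read as 0-based and printed 1-based. Gene bodies and start sites came from GENCODE release 44. A peak was in a window, and shared with the other list, from 1 bp of overlap. Peaks were named by rule: own promoter peaks, the widest distal peak per window, distal peaks of every library of 1 line with no overlap in the other list, and peaks with a STAT3 match. Promoter peaks of other genes in 1 list only, the peaks closest to SOCS3 and the peak inside IL6 were added after their values were seen. Motifs were sought on both strands in the hg38 sequence. All 10 genes had an entry by symbol in the RefSeq promoter table (hg38). Python 3.11.15, pysam 0.24.0 and samtools 1.23.1 were used, and the overlap and motif code was tested on simulated data. Alternatives were windows of 50 and 200 kb, promoters of 1000 and 5000 bp or of protein-coding transcripts, 50% mutual overlap, peaks of every library only, and the central 200 bp for motifs. A sequence item is not reported here.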

Additional observations from a re-analysis of the deposited data

How the results depend on the processing

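All values describe 1 list per line, and no result has a test. No paired analysis was possible because the lists hold no value per library, and for the same reason leaving out each library could not be run. All 10 genes kept an own promoter peak in both lists under every promoter width tried, and with the canonical start alone or peaks of every library alone. With both limits together, an alternative chosen after seeing the data, 10 genes kept one in MM.1S and 9 in RPMI8226, IL6 being the exception. Windows of 50 kb held 125 MM.1S and 118 RPMI8226 peaks, and windows of 200 kb held 323 in each list. The shared part was 58.7% in MM.1S and 59.7% in RPMI8226 where both peaks had to overlap by 50%, and 87.5% and 89.7% among peaks of every library. Over the whole lists, 30788 of 37860 MM.1S peaks of every library and 38020 of 51298 RPMI8226 ones were shared. No share over the lists is given for 50% overlap or for the promoter settings that follow. The windows therefore cannot be set against the lists there. The promoter part was 37.8% and 40.8% with 1000 bp, 67.7% and 70.9% with 5000 bp, and 33.3% and 34.7% with protein-coding transcripts only. Full support was 70.1% among promoter peaks in MM.1S, and 39.4% (MM.1S) and 62.2% (RPMI8226) among distal peaks. STAT3 matches in the central 200 bp were found in 2 MM.1S peaks and 3 RPMI8226 peaks, against 6 and 3 over whole peaks, and the wider STAT consensus in 39 and 30 peaks. Each of these settings widens or narrows what is counted. The number of libraries sets the precision, and a region called in fewer than 3 libraries is missing from the lists.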
